A study of Arabidopsis thaliana with 12 samples.

Results

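Cytochrome P450 transcripts were described in Arabidopsis thaliana seedlings of the wild type and of 3 insertion lines from a study of ubiquitin-like proteases. The P450s here are the 22 probe sets of the ATH1 expression array that name exactly 1 gene and whose symbol begins with CYP7, CYP8 or CYP9, followed by digits and a letter. They are 22 of 22746 probe sets tested and name 22 loci. The cyclophilins, which share the letters CYP, do not meet this pattern, and 2 probe sets that name a P450 together with another gene were left out. The label of a P450 family is broader than what was measured: 19 of the 22 belong to the single subfamily CYP71B, and the others are CYP78A9, CYP79A2 and CYP84A4. RefSeq holds 234 Arabidopsis symbols of this pattern, 36 of them CYP71B, and the P450s outside the 22 were not analysed here.

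The tested lines were AB, SIZ1 and SAB, which the labels give as knock-outs made by T-DNA insertion, and the wild type was COL. All plants were of the Columbia background and were grown untreated on Murashige and Skoog medium, with 3 arrays per genotype and 12 in all. As a protein, SIZ1 joins the small modifier SUMO to its targets, and ubiquitin-like proteases of the SPF1 kind remove SUMO again. The names AB and SAB are not explained in the labels, nor is it stated how many insertion alleles were used. An age of 10 days is stated for AB 1 and AB 2 only, and a harvest date for the other arrays. Values are GCRMA expression values on the log2 scale, and all differences below are log2 differences.

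Cytochrome P450s are heme enzymes that insert oxygen into small molecules, using electrons passed on by a reductase. Plants hold large families of them, which make or break down hormones, pigments, cutin, lignin precursors and defence compounds. The CYP71 family is among the largest, and its CYP71B genes often lie side by side in runs formed by tandem duplication. Members that are close relatives may share probe sequence, so a signal may hold a contribution from a neighbouring copy, and this was not tested.

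The brighter SIZ1 probe set followed the labels. It lay between 2.19 and 2.51 in SIZ1 arrays and between 2.49 and 2.55 in SAB arrays, against 5.36 to 5.60 in COL arrays, while AB arrays lay between 5.16 and 5.45. Another SIZ1 probe set was higher in the same lines, by 1.31 in SIZ1 and 0.90 in SAB (limma adjusted p = 0.00104 and 0.00565). The transcript of the SUMO protease SPF1 lay between 2.80 and 3.42 in AB arrays and 3.13 and 3.29 in SAB arrays, against 4.74 to 4.80 in COL arrays, with 4.22 to 4.35 in SIZ1 arrays. Another gene of this kind, SPF2, was dim throughout, with genotype means from 2.63 in SIZ1 to 2.77 in COL. It was not called against COL in AB (-0.13, limma adjusted p = 0.626) or SAB (-0.09, limma adjusted p = 0.522). SAB 3 stood apart at the dim end of the scale: its first quartile was 2.55, against 2.48 to 2.52 in the other 11 arrays. The RNA taken for labelling was 850 to 894 ng in SAB and 681 to 812 ng in COL, so it moved with that genotype, and its part in the results was not tested. The labels do not tell whether the 3 arrays of a genotype stand for separately grown plants, so the p-values rest on a spread that may be technical, and the small number of arrays limits the precision. Seedlings are mixtures of cell types, in which fewer cells of a type and less RNA per cell cannot be told apart.

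Of the 22 probe sets, 12 had means of 2.90 or more and 10 lay at the floor of the array, with every value between 2.21 and 2.83. The floor members were CYP71B16, CYP71B21, CYP71B25, CYP71B27, CYP71B30P, CYP71B31, CYP71B38, CYP78A9, CYP79A2 and CYP84A4. CYP78A9 is a regulator of fruit and seed size. CYP79A2 turns phenylalanine into the aldoxime that leads to benzylglucosinolate, and CYP84A4 takes part in making arabidopyrones. For comparison, the median over all probe sets was 3.51 and the first quartile 2.51. Values this low carry little signal above background after GCRMA, so these 10 say little about their transcripts in any genotype, and signals of different probe sets do not rank amounts of transcript.

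**Figure D1:**
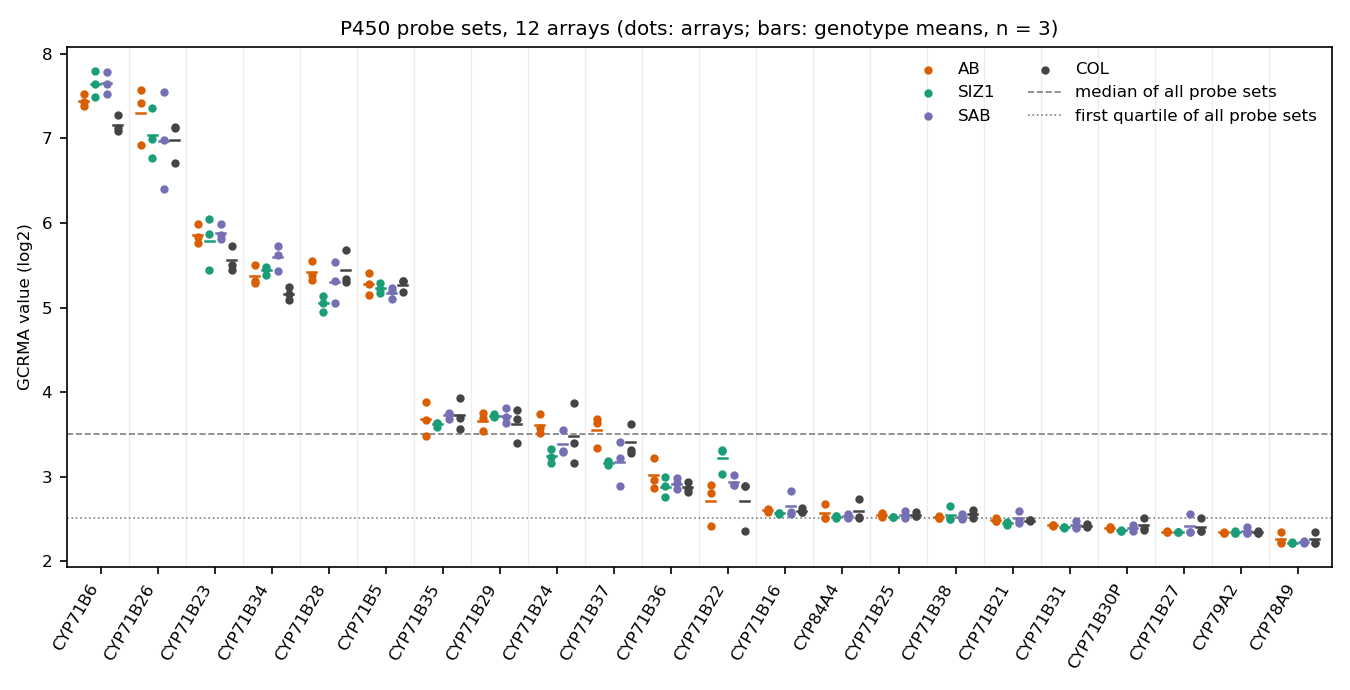
GCRMA values (log2, vertical axis) of the 22 P450 probe sets on 12 arrays, with dots for arrays and short bars for the means of AB, SIZ1, SAB and COL (n = 3 each), sorted by mean over all arrays. The 10 probe sets on the right lie near the first quartile of the array (2.51, dotted line), and for CYP71B6 on the left the COL arrays (7.09 to 7.27) lie below the arrays of the other genotypes.

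CYP71B6 was called higher than COL in SIZ1 and SAB, and it also lay above COL in AB without a call. CYP71B6 (AT2G24180) acts on indole-3-acetonitrile, a nitrile of tryptophan-derived defence metabolism. Its values were 7.43, 7.53 and 7.38 in AB, 7.49, 7.64 and 7.80 in SIZ1 and 7.52, 7.64 and 7.79 in SAB, against 7.27, 7.09 and 7.12 in COL. Each of the 9 arrays of the 3 lines lay above all 3 COL arrays. The transcript rose by 0.48 in SIZ1 (SE 0.09, 95% interval 0.28 to 0.69, 1.40-fold, limma adjusted p = 0.0248) and by 0.49 in SAB (SE 0.09, interval 0.28 to 0.70, 1.41-fold, limma adjusted p = 0.0242). In AB the difference was 0.29 (interval 0.08 to 0.49), which did not pass the threshold of 0.05 (limma adjusted p = 0.397). SAB and SIZ1 differed by 0.01 (interval -0.20 to 0.22), and SAB and AB by 0.21 (SE 0.09, limma adjusted p = 0.294). The data therefore do not show that SAB differs from AB, and SIZ1 alone was not compared with AB. The 3 lines share the same COL arrays, so their differences from COL are not independent. All arrays of a line lay above COL for 4.69% of all probe sets in AB, 8.1% in SIZ1 and 8.33% in SAB. The share that did so in all 3 lines was not counted.

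Both calls of CYP71B6 against COL lay close to the threshold. In a fit with replicate number as a block, its limma adjusted p was 0.0329 in SIZ1 and 0.0316 in SAB. The call in SIZ1 ended without SIZ1 2 (limma adjusted p = 0.0823), COL 2 (0.0780) or COL 3 (0.0645), and that in SAB ended without SAB 2 (0.0696), SAB 3 (0.0796), COL 2 (0.0762) or COL 3 (0.0612). With SIZ1 and SAB pooled against COL and AB, 6 arrays against 6, CYP71B6 was higher by 0.34 (SE 0.07, 1.27-fold, limma adjusted p = 0.0104), and this call held without any 1 of the 12 arrays (adjusted p up to 0.0281). The pooled groups overlapped all the same: 0 of the 22 members were free of overlap there, against 5.98% of all probe sets.

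CYP71B34 was higher in SAB. CYP71B34 (AT3G26300) lies in a run of neighbouring CYP71B genes. Its values were 5.50, 5.31 and 5.30 in AB, 5.39, 5.46 and 5.48 in SIZ1 and 5.63, 5.73 and 5.44 in SAB, against 5.16, 5.09 and 5.25 in COL. Here too all 9 arrays of the lines lay above COL, a pattern whose share over the array was not counted, with SAB highest on average. CYP71B34 rose by 0.43 in SAB (SE 0.08, interval 0.25 to 0.61, 1.35-fold, limma adjusted p = 0.0243). With replicate number as a block, its limma adjusted p in SAB was 0.0370. The differences of 0.28 in SIZ1 (interval 0.09 to 0.46, limma adjusted p = 0.117) and 0.20 in AB (interval 0.02 to 0.39, limma adjusted p = 0.553) did not pass. SAB and SIZ1 differed by 0.15 (interval -0.03 to 0.34), so the data do not show that SAB differs from SIZ1. The pooled comparison of SIZ1 and SAB with COL and AB gave 0.25 (SE 0.06, limma adjusted p = 0.0237), a call that ended without AB 2, AB 3, SIZ1 2, SAB 1, COL 1 or COL 2 (adjusted p up to 0.0593). The call in SAB held without SAB 3 (limma adjusted p = 0.0192) and ended without SAB 1 (limma adjusted p = 0.0757), SAB 2 (0.0719), COL 1 (0.0818) or COL 2 (0.0765).

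The counts of called members were set beside those of the whole array. In SIZ1 1 of the 22 P450s was called, 4.55%, where 3.22% of all probe sets were called against COL (limma, adjusted p under 0.05) and 5.13% in a fit with replicate number as a block. In SAB 2 were called, 9.09%, against a background of 3.21% (5.16% with the block). In AB 0 of the 22 were called, where 0.0615% of all probe sets were (0.325% with the block). In the pooled comparison 2 of 22, 9.09%, were called against 10.7% of the array (13.5% with the block). Every member called was higher, and calls in that direction made up 1.93% of the array in SIZ1, 1.66% in SAB and 5.67% in the pooled comparison. At an unadjusted p under 0.05 stood 2 members in AB (9.09%, against 7.75% of the array), 4 in SIZ1 (18.2%, against 16%) and 3 in SAB (13.6%, against 16.4%). The same members were called with the block in each of these comparisons. The median difference of the 22 was 0.0038 in AB, -0.03 in SIZ1 and 0.0043 in SAB, beside medians of -0.00069, -0.02 and 0.0040 over all probe sets. In size, the members' median differences were 0.03 in AB, 0.06 in SIZ1 and 0.05 in SAB, beside 0.05, 0.07 and 0.07 over all probe sets. A difference of 0.5 or more was found for 1 member in SIZ1, CYP71B22, where 4.68% of all probe sets reached it. In AB and SAB 0 members reached it, beside 1.63% and 4.67% of all probe sets.

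**Figure D2:**
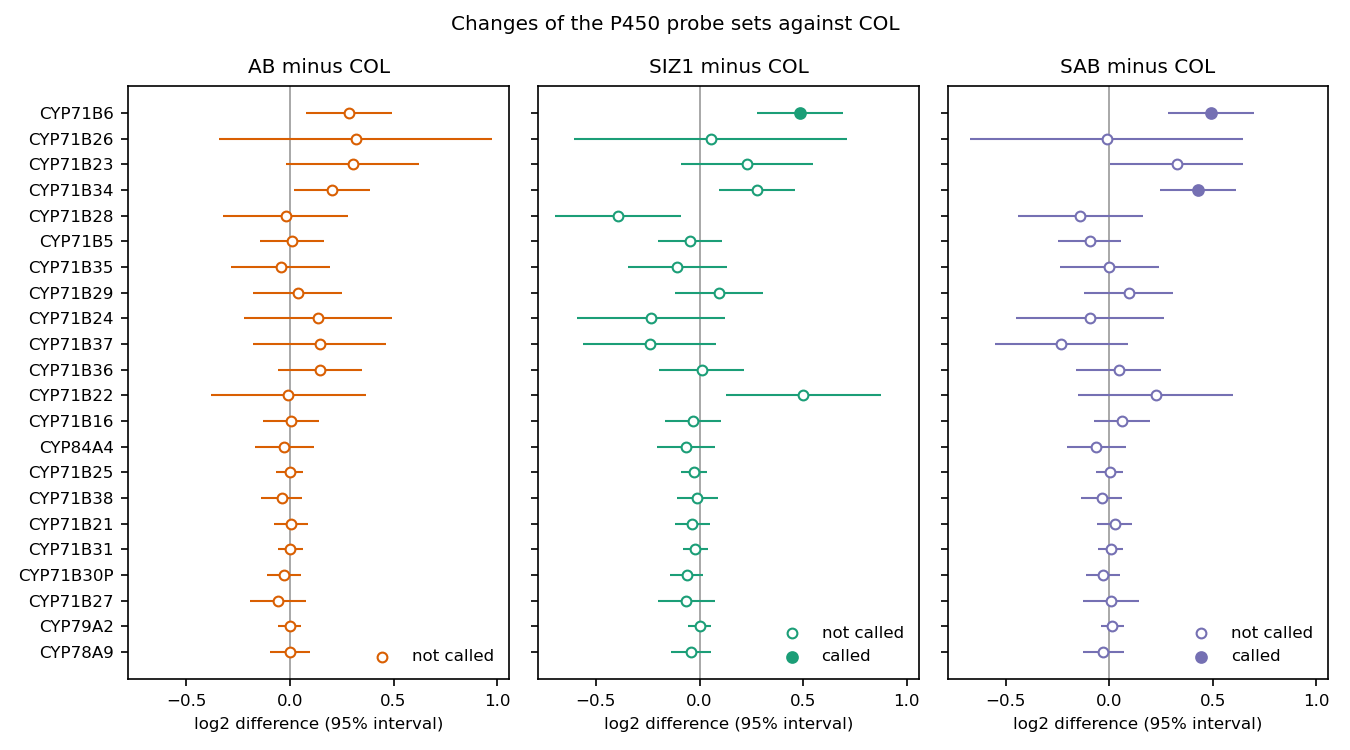
Log2 differences from COL (horizontal axis, points with 95% limma intervals) of the 22 P450 probe sets in AB, SIZ1 and SAB, in the order of their mean signal, with filled points for called probe sets. CYP71B6 is called in SIZ1 and SAB and CYP71B34 in SAB, and the intervals of the floor members at the bottom are narrow because their values hardly vary.

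CYP71B22 and CYP71B23, neighbours in gene order, lay above COL in some lines without passing the test. CYP71B22 (AT3G26200) had values of 2.81, 2.41 and 2.90 in AB, 3.31, 3.30 and 3.04 in SIZ1 and 3.02, 2.90 and 2.90 in SAB, against 2.36, 2.89 and 2.89 in COL. All 3 SIZ1 arrays lay above all COL arrays, AB overlapped COL, and the 3 SAB arrays lay above COL by a small margin. The difference in SIZ1 was 0.50 (SE 0.17, limma adjusted p = 0.162), and that in SAB was 0.22 (limma adjusted p = 0.633). The signal is dim, and its spread within genotypes was 0.22 (pooled SD). A change of 0.73 would have been needed for a call in SIZ1 at this spread.

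CYP71B23 (AT3G26210) had values of 5.83, 5.99 and 5.76 in AB, 5.45, 5.87 and 6.05 in SIZ1 and 5.99, 5.86 and 5.81 in SAB, against 5.73, 5.44 and 5.51 in COL. AB and SAB did not overlap COL, whereas SIZ1 1 lay among the COL values. The differences were 0.30 in AB, 0.23 in SIZ1 and 0.33 in SAB (SE 0.14 each), with limma adjusted p of 0.687, 0.524 and 0.293. CYP71B6, CYP71B23 and CYP71B34 were the 3 of 22 members, 13.6%, whose AB arrays all lay above COL, where 4.69% of all probe sets did so. In SAB 4 members, 18.2%, lay above COL without overlap, against 8.33% of the array, and 0 lay below, against 9.83%. In SIZ1 3 lay above COL without overlap (CYP71B6, CYP71B22 and CYP71B34, 13.6%, against 8.1% of the array).

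CYP71B28 was lowest in SIZ1 and CYP71B37 was low in both SIZ1 and SAB, again without a call. CYP71B28 (AT1G13090) had values of 5.39, 5.55 and 5.32 in AB, 5.14, 5.06 and 4.95 in SIZ1 and 5.31, 5.54 and 5.06 in SAB, against 5.68, 5.34 and 5.31 in COL. The 3 SIZ1 arrays lay below COL, while SAB overlapped both. The difference was -0.39 in SIZ1 (SE 0.13, interval -0.70 to -0.09, limma adjusted p = 0.173) and -0.14 in SAB (limma adjusted p = 0.762). Taking replicate numbers as blocks gave an SE of 0.11 and a limma adjusted p of 0.0867 in SIZ1, still no call.

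CYP71B37 (AT3G26330) had values of 3.34, 3.69 and 3.63 in AB, 3.19, 3.14 and 3.17 in SIZ1 and 2.89, 3.23 and 3.41 in SAB, against 3.63, 3.31 and 3.28 in COL. SIZ1 was tight and below COL, SAB spread more widely, and AB was the highest genotype. SAB and AB differed by -0.38 (SE 0.14, interval -0.70 to -0.05, limma adjusted p = 0.199). SIZ1 and SAB pooled lay 0.31 below COL and AB pooled (difference -0.31, SE 0.10, limma adjusted p = 0.0907). In this pooled comparison 5 members had an unadjusted p under 0.05, 22.7%, against 23.1% of all probe sets.

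The remaining brighter members gave no call in any of the 6 comparisons. CYP71B5 (AT3G53280) averaged 5.28 ± 0.13 in AB, 5.23 ± 0.06 in SIZ1 and 5.18 ± 0.07 in SAB, against 5.27 ± 0.07 in COL (SD, n = 3 each), so the genotypes overlapped. CYP71B29 (AT1G13100) averaged 3.66 ± 0.11, 3.72 ± 0.02 and 3.72 ± 0.09 in AB, SIZ1 and SAB, against 3.63 ± 0.20 in COL. Their intervals in SAB ran from -0.25 to 0.06 and from -0.12 to 0.31, beside 0.25 to 0.61 for CYP71B34. Whether they changed differently from CYP71B34 was not tested. CYP71B24 (AT3G26230) averaged 3.61 ± 0.12, 3.24 ± 0.09 and 3.39 ± 0.14 in AB, SIZ1 and SAB, against 3.48 ± 0.36 in COL, with COL 3 at 3.87 above every other array. CYP71B35 (AT3G26310) averaged 3.68 ± 0.20, 3.62 ± 0.03 and 3.73 ± 0.04 in AB, SIZ1 and SAB, against 3.73 ± 0.19 in COL. CYP71B36 (AT3G26320) averaged 3.02 ± 0.18, 2.89 ± 0.11 and 2.92 ± 0.07 in the same lines, against 2.88 ± 0.06 in COL.

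Neighbouring genes showed unlike differences. By RefSeq gene order (TAIR10.1), 17 of the 22 lie in 3 runs of CYP71B genes. The longest runs from CYP71B16 to CYP71B37 and holds 18 CYP71B genes among 25, of which 11 are members. CYP71B34 is followed by CYP71B35, CYP71B36 and CYP71B37, with nothing between them in the gene table. In SAB these 4 neighbours differed from COL by 0.43, 0.00, 0.05 and -0.23, and in SIZ1 by 0.28, -0.11, 0.01 and -0.24. CYP71B34 was the only member of the run that was called, and whether the change differed between neighbours was not tested. In the run from CYP71B27 to CYP71B7, CYP71B28 and CYP71B29 are direct neighbours, and their differences in SIZ1 were -0.39 and 0.09. The run from CYP71B5 to CYP71B32 holds 3 members, of which CYP71B5 alone was above the floor. CYP71B6, the member called in both SIZ1 and SAB, lies in none of these runs.

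**Figure D3:**
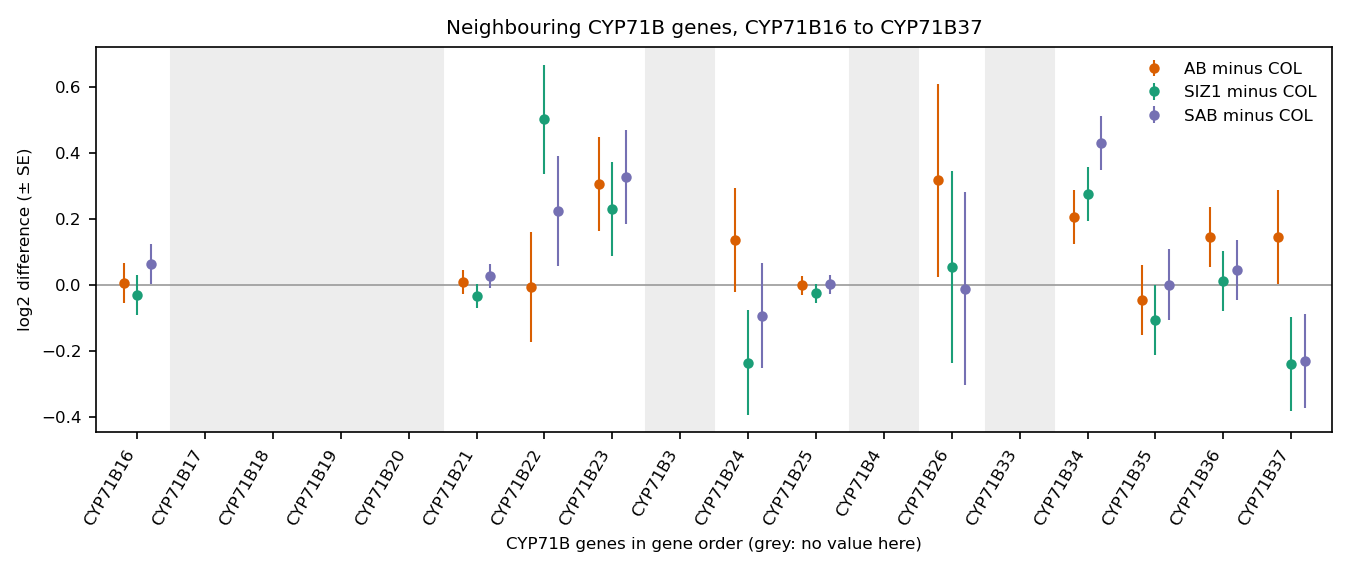
Log2 differences from COL (vertical axis, ± limma SE) in AB, SIZ1 and SAB for the CYP71B genes from CYP71B16 to CYP71B37, in gene order along the horizontal axis, with grey where a gene has no value here. CYP71B34 lies above 0 in all 3 lines (0.20, 0.28 and 0.43), and its neighbour CYP71B35 lies between -0.11 and 0.00.

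CYP71B26 varied with the replicate number more than with the genotype. CYP71B26 (AT3G26290) had values of 7.57, 7.41 and 6.92 in AB, 7.36, 6.99 and 6.76 in SIZ1 and 7.54, 6.98 and 6.40 in SAB, against 7.13, 7.12 and 6.71 in COL, each in the order of the numbers 1, 2 and 3 in the sample names. Array 1 was the highest and array 3 the lowest in each of the 4 genotypes. The means over genotypes were 7.40 for number 1, 7.13 for number 2 and 6.70 for number 3, a range of 0.70, against a range of 0.33 between genotype means. The probe set was the only member with both extremes shared, where 1.97% of all probe sets had this pattern. Its differences were 0.32 in AB (interval -0.34 to 0.97), 0.05 in SIZ1 and -0.01 in SAB. The SE of each was 0.29, and 0.13 in the blocked fit, and the probe set was not called in either (limma adjusted p in the blocked fit = 0.457 in AB). The sources used here do not say what the numbers stand for. CYP71B35 also had a wider range between number means (0.18) than between genotype means (0.11). So did the floor members CYP71B25, CYP71B27, CYP71B31 and CYP71B38, at smaller ranges.

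**Figure D4:**
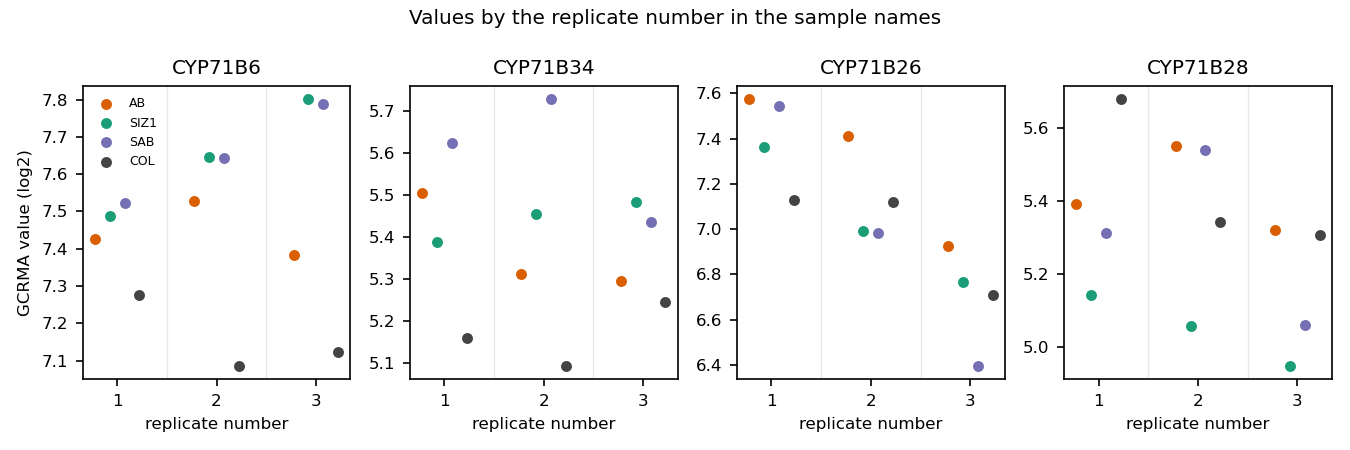
GCRMA values (log2, vertical axis, each panel with its own range) of CYP71B6, CYP71B34, CYP71B26 and CYP71B28 by the replicate number in the sample names (horizontal axis), with dots for AB, SIZ1, SAB and COL. CYP71B26 is highest for number 1 (mean 7.40) and lowest for number 3 (mean 6.70) in all 4 genotypes, whereas the COL values of CYP71B6 (7.09 to 7.27) lie below the other genotypes at every number.

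Differences of the floor members were small, and none was called. Differences of the 10 lay between -0.06 and 0.01 in AB, between -0.06 and 0.00 in SIZ1 and between -0.06 and 0.06 in SAB. Of the 10, 6 had their highest value on SAB 3, the array with the raised first quartile: CYP71B16 stood at 2.57 and 2.58 on the other SAB arrays and at 2.83 on SAB 3, and CYP71B27, which RefSeq lists as a transcribed pseudogene, at 2.34 and 2.35 and at 2.56. How many dim probe sets of the whole array were highest on SAB 3 was not counted, so this is no trait of the P450s. In SIZ1 8 members, 36.4%, lay below all COL arrays, against 26% of all probe sets, and 6 of these 8 were floor members with differences of -0.02 to -0.06. The smallest limma adjusted p of a floor member against COL was 0.481, for CYP71B30P in SIZ1.

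SAB was compared with SIZ1 and with AB, to ask what the lines add to each other. Between SAB and SIZ1 0 members were called by limma, as were 0 of all probe sets (0% of the array), and 0 members had an unadjusted p under 0.05. Of the members, 17 had positive and 5 negative differences, beside 58.6% positive over the array, and 4.31% of the array had an unadjusted p under 0.05. The count of signs includes the 10 floor members, whose differences ran only from -0.02 to 0.09. Without SAB 3, the array with the raised first quartile, 17 of the 22 members kept their sign. For 2 members, 9.09%, the arrays did not overlap, against 10.5% of the array: CYP71B22 differed by -0.28 and CYP71B35 by 0.11 (limma adjusted p = 0.880 for both). Between SAB and AB 0 members were called by limma, against 4.43% of the array (6.82% with the block). CYP71B34 (0.22) and CYP71B37 (-0.38), 9.09% of the members, stood at an unadjusted p under 0.05, against 17.5% of the array, and 0 members were free of overlap, against 20.9%. A departure of the SAB change from the SIZ1 and AB changes added together was called for 0 members and 0 probe sets (limma, 1218 probe sets and 0 members at an unadjusted p under 0.05). It was -0.28 for CYP71B6 (SE 0.13, limma adjusted p = 0.920), whose separate differences of 0.29 in AB and 0.48 in SIZ1 stand beside 0.49 in SAB.

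The pathways in which Arabidopsis P450s act were looked up in 14 lists of 164 loci: redox partners, phenylpropanoids, flavonoids, indole glucosinolates and camalexin, oxylipins, cutin, sterols, triterpenes, carotenoids and the hormones. Under a name of their own 5 of these loci were measured, and none of the P450s in the lists was. UGT74B1, which adds glucose in the synthesis of the glucosinolate core, had values of 6.45, 6.84 and 6.82 in AB, 7.07, 7.07 and 7.00 in SIZ1 and 7.16, 6.95 and 6.99 in SAB, against 6.56, 6.56 and 6.96 in COL. It was higher by 0.34 with SIZ1 and SAB pooled against COL and AB (limma adjusted p = 0.0461), a call that ended in the blocked fit (adjusted p = 0.0570), with quantile normalization (0.0581), and without any 1 of the arrays except COL 3. Against COL alone it was not called in SIZ1 (0.35, limma adjusted p = 0.216) or SAB (0.34, limma adjusted p = 0.223). The other 4, HCT of phenylpropanoid synthesis, DFR of anthocyanin synthesis, the gibberellin receptor GID1A and the lycopene cyclase LYC, were not called in any comparison.

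Markers of organs were set beside these results. Of 9 root markers 2 were measured, of which the hair-cell expansin EXPA7 lay at the floor, and of 8 shoot markers 2 were, while 0 of 5 seed and pollen markers were. The summed linear signal of the shoot markers ran from 6423 to 7387 in AB, 5938 to 6072 in SIZ1 and 5903 to 6332 in SAB, against 7208 to 8105 in COL. AB overlapped COL, whereas SIZ1 and SAB lay below it. LHCB4.2, a light-harvesting protein of photosystem II, fell by 0.84 in SIZ1 (limma adjusted p = 0.0169) and by 0.85 in SAB (0.0165). The brighter LHCB4.1 differed by -0.19 in SIZ1 (limma adjusted p = 0.0280) and by -0.14 in SAB (0.0847, not called). The summed root markers ran from 3529 to 3612 in AB, 2866 to 3637 in SIZ1 and 3768 to 3867 in SAB, against 3067 to 3366 in COL. This sum is almost wholly PYK10 (log2 mean 11.65 in COL, beside 2.51 for EXPA7). PYK10 was not called against COL (limma adjusted p = 0.774 in AB, 0.840 in SIZ1 and 0.135 in SAB). The part of organ proportions in the P450 values was not tested.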

How the data were processed

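Total RNA of 12 samples was hybridised to ATH1 arrays, 1 sample per array. The authors deposited 1 log2 value for each probe set and array, computed with GCRMA per the submitters' processing notes. The sources used here give neither its version nor whether the arrays were processed together. The log2 scale was read from the range, 2.02 to 13.21. The values were used as deposited, without 64 control probe sets. No filter on low values was applied, so all 22 P450 probe sets were tested.

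Gene names came from the platform annotation, updated with RefSeq symbols of TAIR10.1: 13513 probe sets carried 1 gene, 503 several, and 8730 are unnamed here. None of the genes that the choice of members leaves out (CYP83A1 and the CYP79F pair) was among those named alone.

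One limma 3.58.1 model (R 4.3.3) with a term per genotype was fitted to all 22746 probe sets and 12 arrays (8 residual and 1.31 prior degrees of freedom). Tests were two-sided, with Benjamini-Hochberg adjustment over the whole array and calls at adjusted p under 0.05. Intervals are 95% limma intervals. The fit was checked on simulated data with independent noise and changes larger than any P450 difference here. That check does not cover changes of the size reported or arrays that vary together. Same-numbered arrays deviated together from their genotype means in all 18 pairs (r = 0.102 to 0.451). The median was -0.125 in the 36 others. That negative value is no separate evidence, since deviations from a genotype mean cancel out within the genotype. Because same-numbered arrays varied together, a block on replicate number was run as an alternative. Values printed without mention of the block come from the fit that ignores this pairing.

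Named were members called in any of 6 comparisons, the 10 with the highest means, the 10 with the widest range of genotype means and called genes of the lists. The floor members, the grouping at a mean of 2.75, the replicate pattern of CYP71B26 and the departure from the sum were chosen after values were seen. The members and lists were chosen with earlier results of these data known. Alternatives were the block, quantile normalization, median centring, brighter probe sets, the compared groups alone, a trended robust fit, and leaving out each of the 12 arrays.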

Additional observations from a re-analysis of the deposited data

Results flagged for a closer look

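CYP71B35 lay below the COL mean (3.73) in all 3 SIZ1 arrays (3.63, 3.64 and 3.58), and at or above the AB mean (3.68) in all 3 SAB arrays (3.74, 3.76 and 3.68). The differences therefore had opposite signs, -0.11 for SIZ1 minus COL and 0.05 for SAB minus AB, which is why it is given here. The departure of 0.15 was tested as an interaction in limma and did not pass (SE 0.15, limma adjusted p = 0.920). The spread within genotypes was 0.14 (pooled SD), larger than either difference. The array numbered 2 was the highest in each of the 4 genotypes for this probe set, and the departure was fitted without the replicate block.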

How the results depend on the processing

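Counts of called P450s stayed at 0 for AB against COL, SAB against SIZ1 and SAB against AB under all alternatives run. With the replicate number as a block, quantile normalization, median centring, the brighter probe sets (8 of the 22 P450s tested) and the trended robust fit, the counts were as in the fit reported: 1 in SIZ1, 2 in SAB and 2 for the pooled lines. The block changed no call of a P450. With the compared groups alone, which leaves fewer arrays to estimate the spread, the counts were 0 in SIZ1 and 0 in SAB (0.576% and 1.01% of the whole array called), and CYP71B6 had limma adjusted p of 0.141 and 0.0791 and CYP71B34 of 0.104. Leaving out 1 array at a time, the counts ran from 0 to 1 in SIZ1, 0 to 2 in SAB and 1 to 2 for the pooled lines. No called P450 turned direction: CYP71B6 ranged from 0.41 to 0.56 in SIZ1 and from 0.42 to 0.56 in SAB, and CYP71B34 from 0.36 to 0.51 in SAB. In the fit without the block, the smallest change that could have been called in SIZ1 was 0.41 for CYP71B6 and 1.28 for CYP71B26, whose SE was 0.29 there and 0.13 with the block.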
